A study of Homo sapiens with 9 samples.

Results

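Laminins, nidogen and perlecan were followed as 9 genes, LAMA3, LAMA4, LAMA5, LAMB1, LAMB2, LAMB3, LAMC1, NID1 and HSPG2, chosen by gene symbol from the 58735 genes of the count table. Of these, 8 held enough reads to be tested in every comparison, and LAMA4 did not. Basement membranes are thin sheets of extracellular matrix under epithelia and around vessels. Their laminins are cross-shaped trimers of 1 alpha, 1 beta and 1 gamma chain that polymerise on the cell surface, where the end of the alpha chain binds integrins and dystroglycan. Nidogen bridges the laminin network to collagen IV, and perlecan, a large heparan sulfate proteoglycan, binds both networks and stores growth factors. In the kidney, laminins underlie tubules and form part of the glomerular filter.

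The libraries came from 786-0, an established clear cell renal cell carcinoma line with defective VHL, an inactivating HIF1α mutation and constitutive HIF2α (gene EPAS1), grown in DMEM with 5 mM glucose and 10% FBS at 21% oxygen for 48 h. The 3 groups of 3 libraries were untreated parental cells (WT), parental cells given 10 μM of PT2385 for 48 h (PT2385), and untreated cells of a HIF2α knockout of the line (KO). PT2385 is a small molecule that binds the PAS-B domain of HIF2α and prevents its pairing with HIF1β. KO is labelled only as a HIF2α knockout, and the sources used here do not say whether it is a single clone. The loss of HIF2α and other properties of the knockout cells cannot be told apart. Nothing in those sources says that replicates were separate cultures, so p-values measure only the spread between these libraries, which may be technical.

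Total counts ran from 11881000 to 14730081 per library, and levels are given as CPM, counts per 1000000 counts of the TMM-scaled library. EPAS1 was 256 CPM ± 20.6 (SD, n = 3) in WT, 238 ± 15.3 with PT2385 and 22.1 ± 2.61 in KO, a log2 fold change of -3.52 in KO (adjusted p = 2.15e-09). The HIF2α targets NDRG1, SLC2A1, EGLN3 and VEGFA fell with PT2385 (log2 fold changes of -3.54 to -2.12) and in KO (-5.74 to -1.80). All 7 renal carcinoma markers exceeded the floor of 3 reads, and their summed level, most of it VIM (52161 to 66723 reads), was 5866 to 6566 CPM over all libraries. Single markers were less even, with PAX2 at 377 to 461 reads in WT and 146 to 230 in KO, MME at 109 to 194 and 55 to 76, KRT8 at 4466 to 5158 and 7391 to 8864, and KRT18 at 1722 to 2142 and 3447 to 4734. None of the 5 endothelial markers exceeded it, with PECAM1 and VWF at 0, and of 5 leukocyte markers only CD14 did. Of 6 fibroblast and mesangial markers 3 did, COL1A2, COL3A1 and DCN were at 0, and the summed level was 8.74 to 10.1 CPM in WT, 10.6 to 13.2 with PT2385 and 5.21 to 7.04 in KO. COL1A1 held 55 to 77 reads in WT and 24 to 45 in KO, and PDGFRB 27 to 31 and 0 to 2. LUM went the other way, at 15 to 22 and 31 to 60. The part of these markers in the results was not tested. In RNA from whole cultures, fewer cells of a type and less RNA per cell cannot be told apart.

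Upon PT2385 treatment a single gene of the 9 was called, LAMB1, which rose 1.37-fold. With the replicate number as a block there were 3, LAMB1 and LAMA5 higher and LAMB3 lower, where 2305 of all 15089 tested genes were called. In KO against WT, LAMA5 rose 6.99-fold, NID1, LAMB2 and LAMB1 rose less, and LAMC1 fell to 0.637 of its WT level. With all 6 libraries, the low-count filter and no block, HSPG2, LAMA3 and LAMB3 were not called in any comparison. Some alternatives called LAMA3 or LAMB3, as given below. The background was 7.7% of all tested genes called with PT2385 (3.08% higher, 4.62% lower), 30.1% in KO against WT (14.7% higher, 15.4% lower) and 18.8% in KO against PT2385 (8.47% higher, 10.3% lower). Beside it stood 1 of 8 tested laminin, nidogen and perlecan genes with PT2385 (1 higher, 0 lower), 5 of 8 in KO against WT (4 higher, 1 lower) and 5 of 8 in KO against PT2385 (3 higher, 2 lower). At an unadjusted p under 0.05 the PT2385 counts were 2 higher and 1 lower. The share of all genes at that threshold was not counted, so these counts are not read as a result. DESeq2 called 1 higher, LAMB1, and 0 lower with PT2385, where it called 1072 of all 15089 tested genes. The median log2 fold change of the 8 was 0.06, 0.18 and 0.09 in the same order, against 0.000993, 0.00378 and -0.00348 over all tested genes. The comparisons share libraries in pairs, so their results are not independent of each other.

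**Figure D1:**
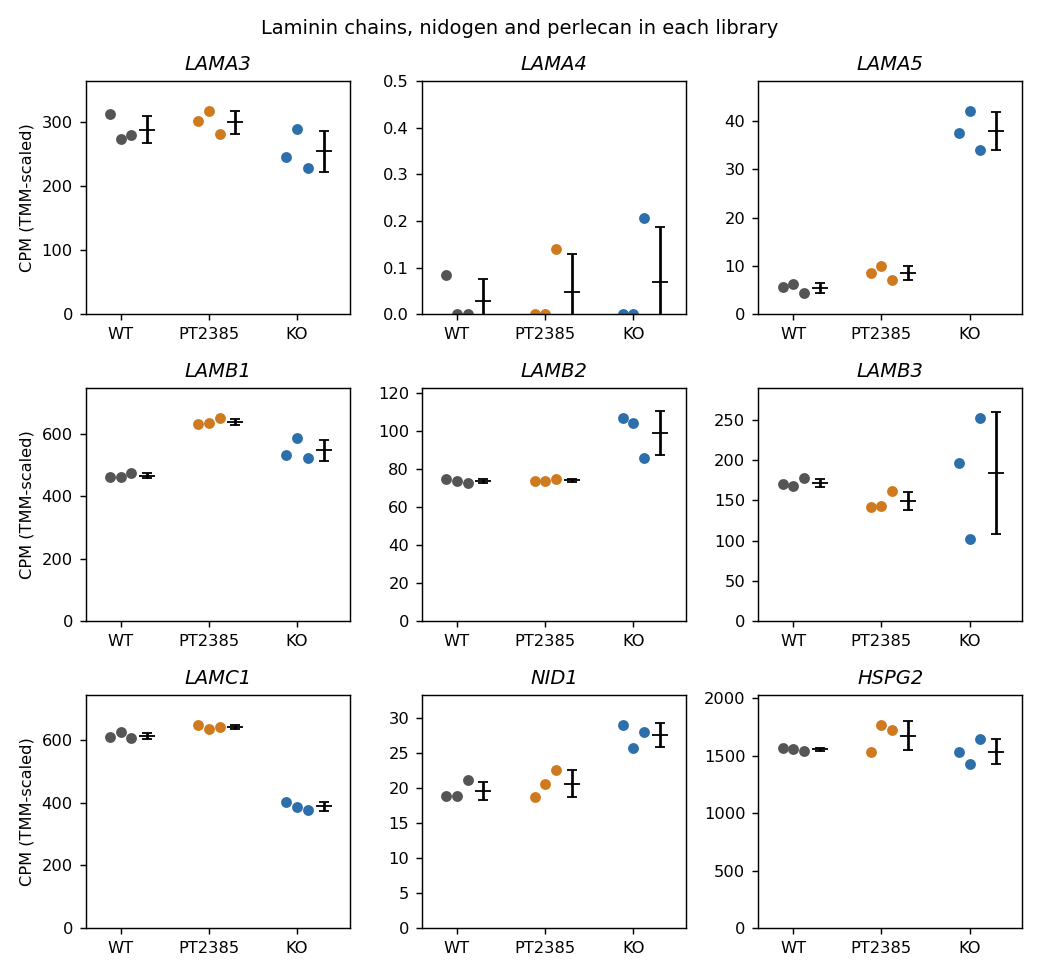
Level of each of the 9 genes in each library, in CPM on a linear axis from 0 (a separate scale per gene), for WT, PT2385 and KO. Points are libraries, and the bar beside them gives the mean and SD of 3. LAMA5 stands at 34.1 to 42.0 CPM in KO against 4.41 to 10.0 elsewhere, LAMC1 is lower in every KO library, LAMB1 is higher in every PT2385 library, and LAMB3 is spread widely in KO.

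**Figure D2:**
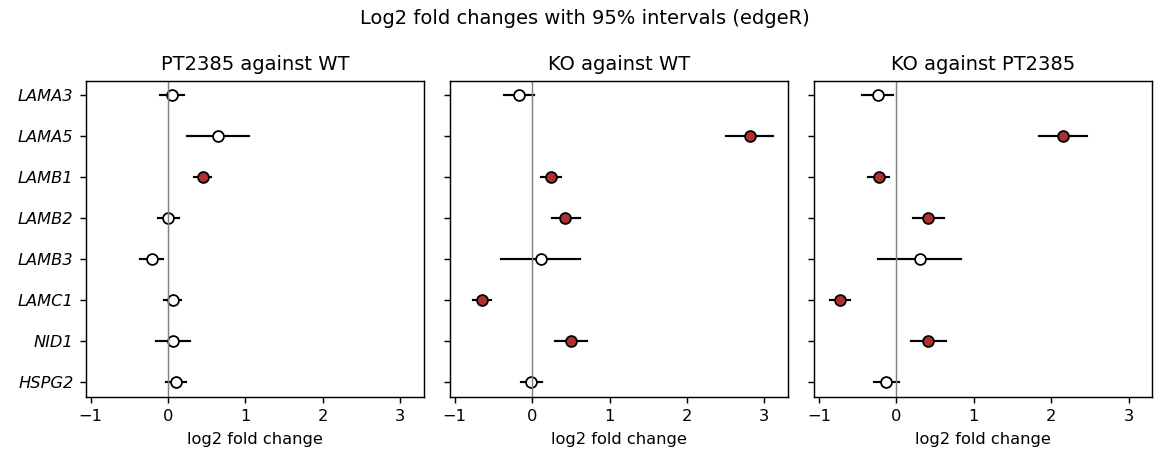
Log2 fold change (edgeR) with its 95% interval for the 8 tested genes in PT2385 against WT, KO against WT and KO against PT2385, with filled points for an adjusted p under 0.05. With PT2385 the filled point is LAMB1 at 0.45, and in KO against WT the points run from LAMC1 at -0.65 to LAMA5 at 2.81.

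The stretches around the transcription starts are shown for LAMA5 and LAMC1, whose KO calls held under all 12 alternatives, for LAMB1, whose PT2385 call did, for NID1, whose product binds the LAMC1 chain, and for LAMA3 and LAMB3, whose chains pair in the laminin of epithelial anchoring sites. Each runs 5′ to 3′ on the gene's strand from 250 bases before the RefSeq start to 50 bases after it (GRCh38.p14). They were searched on both strands for the core of the HIF binding motif (ACGTG or GCGTG) and for the AP-1 motif (TGACTCA, whose reverse complement is TGAGTCA), and capitals mark the matches.
LAMA5: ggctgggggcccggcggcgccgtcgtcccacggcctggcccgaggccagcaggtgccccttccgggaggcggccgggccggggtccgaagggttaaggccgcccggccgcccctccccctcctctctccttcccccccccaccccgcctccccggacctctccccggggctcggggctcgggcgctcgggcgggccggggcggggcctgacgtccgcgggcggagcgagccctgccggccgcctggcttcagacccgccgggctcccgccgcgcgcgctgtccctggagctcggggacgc
LAMB1: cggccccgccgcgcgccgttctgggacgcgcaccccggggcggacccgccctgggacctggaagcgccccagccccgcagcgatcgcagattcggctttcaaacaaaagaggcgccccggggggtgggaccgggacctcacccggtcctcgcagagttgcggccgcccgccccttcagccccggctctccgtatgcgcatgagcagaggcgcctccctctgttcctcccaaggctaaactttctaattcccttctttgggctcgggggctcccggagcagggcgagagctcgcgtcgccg
LAMC1: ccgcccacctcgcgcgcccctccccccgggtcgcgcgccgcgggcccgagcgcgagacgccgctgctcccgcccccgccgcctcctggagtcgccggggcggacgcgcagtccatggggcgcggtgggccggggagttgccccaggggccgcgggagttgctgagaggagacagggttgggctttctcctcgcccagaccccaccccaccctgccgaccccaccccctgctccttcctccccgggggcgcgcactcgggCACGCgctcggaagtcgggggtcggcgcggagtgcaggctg
NID1: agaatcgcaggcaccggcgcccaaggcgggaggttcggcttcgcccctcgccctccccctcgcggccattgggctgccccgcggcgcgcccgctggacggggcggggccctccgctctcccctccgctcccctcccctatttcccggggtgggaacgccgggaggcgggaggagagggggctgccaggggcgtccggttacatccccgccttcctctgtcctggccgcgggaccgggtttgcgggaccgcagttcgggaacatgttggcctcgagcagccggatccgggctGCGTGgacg
LAMA3: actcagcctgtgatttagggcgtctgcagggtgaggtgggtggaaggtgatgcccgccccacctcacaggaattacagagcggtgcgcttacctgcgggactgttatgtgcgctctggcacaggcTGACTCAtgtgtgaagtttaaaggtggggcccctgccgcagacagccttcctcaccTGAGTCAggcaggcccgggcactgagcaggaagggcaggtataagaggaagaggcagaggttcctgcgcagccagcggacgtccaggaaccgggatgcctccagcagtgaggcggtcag
LAMB3: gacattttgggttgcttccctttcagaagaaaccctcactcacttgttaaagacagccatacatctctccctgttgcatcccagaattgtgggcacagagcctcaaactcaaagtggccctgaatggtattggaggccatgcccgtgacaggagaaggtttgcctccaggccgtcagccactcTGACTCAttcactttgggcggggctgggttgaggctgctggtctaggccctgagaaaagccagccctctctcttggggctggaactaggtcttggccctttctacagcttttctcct
The stretches are, in that order, chr20:62367263-62367562 (minus strand), chr7:108003112-108003411 (minus), chr1:183023170-183023469 (plus), chr1:236065041-236065340 (minus), chr18:23872770-23873069 (plus) and chr1:209651325-209651624 (minus). LAMC1 held 1 HIF core match, read on the opposite strand as CACGC, whose first printed base is base 10 of the transcript. NID1 held 1, at base 42 of the transcript. A HIF core match occurs in 48.4% of the 34796 RefSeq stretches of this length. LAMA3 held 2 AP-1 matches, 125 and 69 bases before the start, and LAMB3 held 1, 67 bases before it, where 4.96% of all stretches hold at least 1 and 0.224% at least 2. LAMA5, with 82.7% G and C against a median of 58.7% over all stretches, and LAMB1, with 71%, held neither motif. The stretches of LAMA4, LAMB2 and HSPG2 and the other 2 of LAMB3 held none either. LAMB2 was not shown, though its KO calls also held under all 12 alternatives. The LAMB3 start shown lies 1051 bases inside the gene as GENCODE 44 annotates it, while the 2 without a match lie 96 and 0 bases from its annotated start. The LAMA3 start shown lies 183567 bases inside the gene, so it belongs to a shorter transcript, and these counts per gene do not say which start was used.

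Among the alpha chains, LAMA5 (ENSG00000130702, chromosome 20, 62307955 to 62367312) is the broadly expressed chain of adult basement membranes. It held 5.71, 6.25 and 4.41 CPM in the WT libraries, 8.52, 10.0 and 7.04 CPM with PT2385 and 37.7, 42.0 and 34.1 CPM in KO. No group overlapped another, and the lowest KO library stood above the highest PT2385 library. LAMA5 rose in KO by a log2 fold change of 2.81 (SE 0.138, adjusted p = 9.83e-08) against WT and of 2.15 (SE 0.140, adjusted p = 3.37e-06) against PT2385, and both calls held under all 12 alternatives, with log2 fold changes of 2.67 to 2.91 and of 2.03 to 2.29. With PT2385 the log2 fold change was 0.64 (95% interval 0.24 to 1.04, adjusted p = 0.0586), just short of the threshold, on 53 to 76 reads in WT and 100 to 135 with PT2385. That call was gained without PT2385 replicate 3 (0.77, adjusted p = 0.0126), without the filter on low counts (adjusted p = 0.0057), with all 9 libraries in 1 model (adjusted p = 0.0422) and with the replicate block (adjusted p = 0.00583).

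Exons of LAMA5 share 244 bases (1.71% of its exon length) with ADRM1 on the opposite strand, and whether reads were counted by strand is not given in the sources used here. ADRM1, a ubiquitin receptor of the proteasome, was at 147 CPM ± 10.7 in WT and 155 ± 10.9 in KO (log2 fold change 0.08, adjusted p = 0.442), against 2.81 for LAMA5. The part of ADRM1 reads in the smaller PT2385 difference was not tested. The antisense gene LAMA5-AS1 held 0 to 3 reads in every library.

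LAMA3 (ENSG00000053747, chromosome 18, 23689453 to 23956222) gives the alpha chain of the laminin that anchors epithelia through hemidesmosomes. Its level was 313, 274 and 280 CPM in WT, 303, 317 and 281 CPM with PT2385 and 246, 290 and 228 CPM in KO. The groups overlapped, with KO replicate 2 inside the range of WT. None of its 3 differences was called, the largest being -0.24 in KO against PT2385 (95% interval -0.44 to -0.04, adjusted p = 0.0949). Without KO replicate 2, LAMA3 was called lower in KO against WT (-0.27, adjusted p = 0.0228) and against PT2385 (-0.34, adjusted p = 0.0204), and it was called lower against PT2385 with no low-count filter (adjusted p = 0.0267) and with the replicate block (adjusted p = 0.00966).

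LAMA4 (ENSG00000112769, chromosome 6, 112107931 to 112254939), the alpha chain typical of vessel walls, held 1, 0 and 0 reads in WT, 0, 0 and 2 with PT2385 and 0, 0 and 3 in KO. All libraries were at or under the floor of 3 reads, which is 0.204 to 0.253 CPM, so any LAMA4 transcript was not detectable at this depth and no fold change is given.

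Among the beta chains, LAMB1 (ENSG00000091136, chromosome 7, 107923799 to 108003213) joins LAMC1 in most laminins of embryonic and tubular basement membranes. It held 461, 463 and 474 CPM in WT, 630, 634 and 650 CPM with PT2385 and 534, 586 and 523 CPM in KO. The 3 groups did not overlap, PT2385 being highest and KO between. Upon PT2385 treatment LAMB1 rose by a log2 fold change of 0.45 (SE 0.0502, adjusted p = 1.14e-04), and it was called under all 12 alternatives, at 0.44 to 0.47. In KO it rose by 0.24 (SE 0.0596, adjusted p = 0.00973), a call lost without WT replicate 2 (0.23, adjusted p = 0.0561). KO was lower than PT2385, with a log2 fold change of -0.22 (SE 0.0630, adjusted p = 0.0302), and this call was lost on leaving out any single library of KO or PT2385 other than KO replicate 2, with adjusted p of 0.055 to 0.138. LAMB1 shares 300 exon bases (1.61%) with DLD, a mitochondrial dehydrogenase subunit on the opposite strand, whose log2 fold change was 0.03 with PT2385 (adjusted p = 0.853) and 0.38 in KO (adjusted p = 7.47e-04). The part of DLD reads in the KO result was not tested.

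LAMB2 (ENSG00000172037, chromosome 3, 49121114 to 49133118) takes the place of LAMB1 in the mature glomerulus and at neuromuscular junctions. Its level was 74.6, 73.5 and 72.7 CPM in WT, 73.6, 73.4 and 74.8 CPM with PT2385 and 107, 104 and 85.5 CPM in KO. WT and PT2385 libraries overlapped, and every KO library stood above them. LAMB2 rose in KO by 0.43 (SE 0.0834, adjusted p = 0.00247) against WT and by 0.41 (SE 0.0880, adjusted p = 0.00755) against PT2385 on the log2 scale. Both calls held under all 12 alternatives, at 0.38 to 0.53 and at 0.35 to 0.5. With PT2385 the log2 fold change was 0.00, with a 95% interval of -0.13 to 0.14.

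LAMB3 (ENSG00000196878, chromosome 1, 209614870 to 209652425), the beta chain that pairs with LAMA3, was the least even of the genes. It held 171, 167 and 178 CPM in WT, 142, 143 and 162 CPM with PT2385 and 197, 103 and 252 CPM in KO. Every PT2385 library was below every WT library, while KO replicate 2 was the lowest of all 9 libraries and the other KO libraries were the highest. With PT2385 the log2 fold change was -0.21 (95% interval -0.36 to -0.07, adjusted p = 0.0748), which was called without PT2385 replicate 3 (-0.27, adjusted p = 0.0102) and with the replicate block (adjusted p = 0.00869). In KO it was 0.11 against WT (95% interval -0.40 to 0.62, adjusted p = 0.771) and 0.30 against PT2385 (adjusted p = 0.44). Without KO replicate 2 these became 0.40 (adjusted p = 0.00891) and 0.59 (adjusted p = 0.0046), and without KO replicate 3 the first was -0.19 (adjusted p = 0.43). Without the filter on low counts, KO against PT2385 was called at 0.30 (adjusted p = 0.00453). The direction of LAMB3 in KO thus rested on single libraries.

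LAMC1 (ENSG00000135862, chromosome 1, 183023420 to 183145592) supplies the gamma chain of most laminins. Its level was 609, 625 and 607 CPM in WT, 648, 635 and 640 CPM with PT2385 and 403, 385 and 376 CPM in KO. The KO libraries lay far under all others, and the PT2385 libraries lay slightly above WT without overlap. LAMC1 fell in KO by 0.65 on the log2 scale against WT (SE 0.0549, adjusted p = 7.03e-06) and by 0.73 against PT2385 (SE 0.0598, adjusted p = 1.70e-05), and both calls held under all 12 alternatives, at -0.68 to -0.63 and at -0.76 to -0.71. With PT2385 its log2 fold change was 0.06 (95% interval -0.05 to 0.17, adjusted p = 0.549). LAMC1 was the only gene of the 9 called lower in KO against WT.

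NID1 (ENSG00000116962, chromosome 1, 235975830 to 236065109) encodes nidogen-1, the linker that binds the gamma 1 chain. It held 18.8, 18.8 and 21.1 CPM in WT, 18.7, 20.5 and 22.5 CPM with PT2385 and 28.9, 25.6 and 28.0 CPM in KO. The KO libraries stood above all 6 others, which overlapped. NID1 rose in KO by 0.50 against WT (SE 0.0957, adjusted p = 0.0023) and by 0.41 against PT2385 (SE 0.103, adjusted p = 0.0168) on the log2 scale. The first call held under all 12 alternatives, at 0.47 to 0.56. The second call was lost without KO replicate 1 (0.38, adjusted p = 0.0789), PT2385 replicate 1 (0.36, adjusted p = 0.0584) or PT2385 replicate 2 (0.42, adjusted p = 0.0701). The gamma 1 chain and its linker therefore moved in opposite directions in the same KO libraries.

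HSPG2 (ENSG00000142798, chromosome 1, 21822244 to 21937310), the core protein of perlecan, held 1572, 1558 and 1544 CPM in WT, 1536, 1768 and 1727 CPM with PT2385 and 1536, 1431 and 1644 CPM in KO. The 3 groups overlapped. Its log2 fold change was 0.10 with PT2385 (95% interval -0.02 to 0.23, adjusted p = 0.352) and -0.01 in KO against WT (95% interval -0.14 to 0.13, adjusted p = 0.939). HSPG2 shares 2122 exon bases (11.7%) with LDLRAD2 on the opposite strand, which held 1 to 5 reads per library.

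Levels of different genes were compared as RPKM, which is CPM divided by the kilobases of annotated exon. In WT the order of the mean RPKM levels was HSPG2 (86.0 ± 0.785), LAMC1 (72.7 ± 1.12), LAMB3 (37.0 ± 1.11), LAMB1 (25.1 ± 0.395), LAMA3 (19.9 ± 1.45), LAMB2 (10.7 ± 0.140), NID1 (3.37 ± 0.223) and LAMA5 (0.382 ± 0.0661), all SD with n = 3, and no neighbours overlapped within their SD. With PT2385, LAMB1 (34.3 ± 0.569 RPKM) and LAMB3 (32.0 ± 2.42 RPKM) lay within that spread of each other, and the rest of the order held. In KO the order was as in WT, with LAMB3 (39.5 ± 16.3 RPKM) overlapping LAMC1 (45.9 ± 1.63) and LAMB1 (29.4 ± 1.82), and LAMA3 (17.6 ± 2.20) overlapping LAMB2 (14.4 ± 1.67). The place of LAMB1 depends on the length used, since with the longest transcript in place of all exons it stood at 69.2 RPKM in WT and LAMB3 at 40.0. With that length LAMB1 lay below LAMC1 in WT (77.4 RPKM). It lay above LAMC1 with PT2385 (94.7 against 80.9) and in KO (81.3 against 48.9). The order as in WT was thus kept only with all exons as length.

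Of the summed RPKM level of LAMA3, LAMA4 and LAMA5, LAMA5 made up 1.89% ± 0.349 in WT, 2.79% ± 0.320 with PT2385 and 13.1% ± 0.321 in KO (SD, n = 3). The library values were 1.82%, 2.26% and 1.58% in WT, 2.77%, 3.11% and 2.47% with PT2385 and 13.5%, 12.8% and 13.2% in KO, so the groups did not overlap. LAMA3 made up nearly all the rest, at 98.1%, 97.2% and 86.8%. If the shorter LAMA3 transcript was the one used, the LAMA3 RPKM is understated and the LAMA5 share overstated. That was not tested. The alpha sum itself was 20.3 RPKM ± 1.46 in WT, 21.3 ± 1.34 with PT2385 and 20.2 ± 2.47 in KO, a difference within the spread between libraries.

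The beta sum, LAMB1 with LAMB2 and LAMB3, was 72.8 RPKM ± 1.39 in WT, 77.1 ± 3.09 with PT2385 and 83.3 ± 13.3 in KO. LAMB1 made up 34.4% ± 0.278 of it in WT and 44.5% ± 1.03 with PT2385, while LAMB3 made up 50.8% ± 0.557 and 41.5% ± 1.44. These shares did not overlap between WT and PT2385, whereas in KO they were as uneven as LAMB3 itself, with LAMB3 at 48.9%, 32.1% and 57.2%. With the longest transcript as length, LAMB1 was the larger share in every group, 56.7% in WT, 66.6% with PT2385 and 58.0% in KO. The shares were described and not tested.

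**Figure D3:**
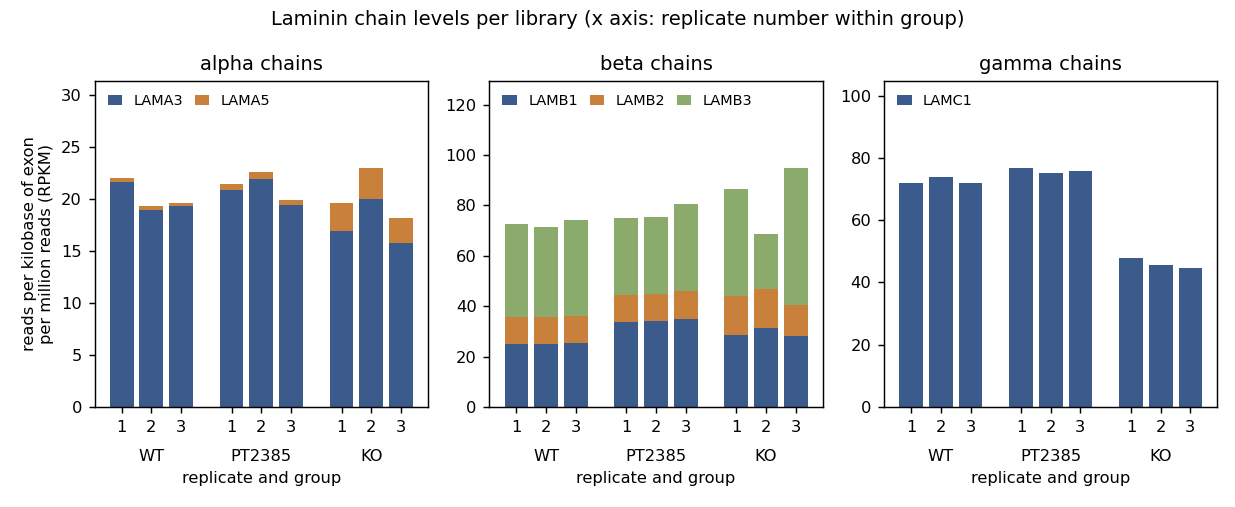
RPKM level of laminin chain genes in each library, stacked by chain class, with replicates 1 to 3 of WT, PT2385 and KO along the horizontal axis. LAMA4 is left out as it lies at or under 3 reads. The KO bars hold more LAMA5 (13.1% of the alpha sum) and less LAMC1 (45.9 RPKM), and the PT2385 bars hold more LAMB1.

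The genes whose pattern was most like that of LAMA5, by Pearson correlation of log2 CPM over the 9 libraries among 10139 genes, were NID2 (r = 0.992), BCL9L (r = 0.992) and AHNAK2 (r = 0.991). The mean levels of NID2, the second nidogen, were 6.32 CPM in WT, 8.94 with PT2385 and 61.5 in KO. For LAMB1 they were AKIRIN1 (r = 0.972), FHOD1 (r = 0.972) and TNIK (r = 0.960), and TNIK, a kinase of the WNT pathway, ran at 81.2, 166 and 108 CPM in the same order. The libraries share 3 groups, so a gene that differs between the groups in the same order correlates highly, and these values are descriptions.

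Of 5 other laminin and nidogen genes, LAMB4 and LAMC3 held at most 2 reads in any library. With PT2385, 0 of the 3 tested were called. In KO, NID2 and LAMA1 were called higher against WT and against PT2385, and LAMA2 was tested only against PT2385. LAMA1 passed the low-count filter against WT and against PT2385 (7 to 14 reads) through its KO libraries, where it was high, so no count or median of those tested is read as a result. NID2, nidogen-2, held 7.47, 6.99 and 4.50 CPM in WT, 10.7, 9.45 and 6.69 CPM with PT2385 and 58.5, 66.5 and 59.4 CPM in KO. It rose in KO by a log2 fold change of 3.29 (SE 0.144, adjusted p = 4.01e-08), above that of every tested gene of the 9. LAMA1, the embryonic alpha chain, rose in KO by 1.36 (adjusted p = 0.0287) on 4 to 18 reads in WT and 29 to 43 in KO, a call lost without KO replicate 1 (adjusted p = 0.11), WT replicate 2 (0.0836) or WT replicate 3 (0.0898). LAMA2, the muscle alpha chain, held 6 to 17 reads in any library and was not called where it was tested.

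Of 20 other basement membrane components 9 were tested, and 4 rose and 1 fell with PT2385 (median log2 fold change 0.18), 4 rose and 1 fell in KO against WT (0.25), and 2 rose and 2 fell in KO against PT2385 (-0.02). Over all tested genes, 7.7%, 30.1% and 18.8% were called in these comparisons, in the same order. The collagen IV chains COL4A1 and COL4A2, which share a promoter region and form the main collagen IV trimer, rose with PT2385 by 0.49 (adjusted p = 9.25e-05) and 0.25 (adjusted p = 0.0129). In KO, COL4A2 rose by 0.25 (adjusted p = 0.00367), while COL4A1 was at 411 CPM ± 6.74 in WT and 408 ± 14.0 in KO (adjusted p = 0.986) and lower in KO than with PT2385 (-0.52, adjusted p = 2.56e-04). PXDN, the peroxidase that cross-links collagen IV, went in opposite directions, by -0.49 with PT2385 (adjusted p = 0.0399) and by 2.23 in KO (adjusted p = 4.04e-08), and TINAGL1, a laminin-binding matrix protein, rose by 0.31 (adjusted p = 0.0158) and 0.85 (adjusted p = 8.88e-06). COL18A1, the source of endostatin, rose in KO by 0.37 (adjusted p = 7.99e-04). The gene that fell in KO against WT was FREM2, also 1 of the 2 lower in KO against PT2385. It held 15 to 29 reads in WT, 11 to 25 with PT2385 and 3, the floor, in each KO library. In both comparisons it passed the low-count filter through the other group, so the KO counts and medians of this list are not read as a result. With PT2385, COL4A5 rose by 0.73 (adjusted p = 0.0473). The PT2385 calls of COL4A5 and PXDN were lost in 5 and 7 of 12 alternatives, at adjusted p of 0.219 and 0.165 without PT2385 replicate 2, and that of TINAGL1 without WT replicate 1 (0.0782) or 2 (0.0691).

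Of 14 laminin and perlecan receptors 11 were tested, and 1 rose and 0 fell with PT2385 (median 0.06), 4 rose and 1 fell in KO against WT (-0.03), and 0 rose and 2 fell in KO against PT2385 (0.03). The shares called over all tested genes were 7.7%, 30.1% and 18.8%, in the same order. The heparan sulfate proteoglycan SDC2 rose with PT2385 by 0.43 (adjusted p = 0.00595) and in KO by 0.78 (adjusted p = 6.12e-04). Its PT2385 call was lost with all 9 libraries in 1 model (0.0507). In KO, DAG1, the dystroglycan that binds laminin alpha chains, rose by 0.31 (adjusted p = 0.00355), ITGA3, the alpha chain of a laminin-binding integrin, rose by 0.28 (adjusted p = 0.00489) and the epithelial syndecan SDC1 fell by 0.40 (adjusted p = 0.00246). GPC1, a lipid-anchored proteoglycan, rose in KO by 0.29 (adjusted p = 0.0248), a call lost without KO replicate 1 (0.103), WT replicate 2 (0.0575) or WT replicate 3 (0.104). ITGB4, the integrin chain of hemidesmosomes, held at most 3 reads in any library.

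Of 12 genes that glycosylate dystroglycan 11 were tested, with 0 called with PT2385 (median 0.17), 2 higher and 1 lower in KO against WT (-0.04) and 1 higher and 2 lower in KO against PT2385 (-0.08). Over all tested genes the shares called were 7.7%, 30.1% and 18.8%, in the same order. The counts of this list are not read as a result. POMT1, which adds the first mannose, rose in KO against WT by 0.42 (adjusted p = 0.00189). RXYLT1, a xylosyltransferase, rose by 0.31 (adjusted p = 0.0205), a call lost with DESeq2 (0.0504) and without KO replicate 1 (0.0652), WT replicate 1 (0.0804) or WT replicate 2 (0.0653). B3GALNT2, which adds a sugar of the same chain, fell by 0.27 (adjusted p = 0.0181), but not without WT replicate 2 (0.0852). Against PT2385, the KO calls of POMT1 (higher) and POMGNT1 (lower) were lost in 8 and 6 of 12 alternatives. Of 15 genes for heparan sulfate synthesis and trimming, which build the chains that perlecan carries, 0 rose in any comparison, and 1 of 13 tested fell with PT2385 (median 0.10), 3 of 12 in KO against WT (-0.06) and 4 of 13 in KO against PT2385 (-0.15). Among the 4 was HS6ST2, with 16 to 23 reads with PT2385 and 2 to 7 in KO. It passed the low-count filter through the PT2385 libraries and was not tested in KO against WT, so these counts are not read as a result. NDST1, a sulfotransferase at the start of chain modification, fell by 0.31 with PT2385 (adjusted p = 0.00466) and by 0.27 in KO (adjusted p = 0.0149), the latter call being lost without WT replicate 2 (0.0582) or 3 (0.0534). GLCE, the epimerase of glucuronic acid, fell in KO by 0.42 (adjusted p = 0.00582). The other gene called in KO against WT was HS2ST1, a sulfotransferase, at -0.20 (adjusted p = 0.0244), a call lost in 6 of 12 alternatives, with DESeq2 (0.0565), with no filter on low counts (0.0501) and without KO replicate 1 or any WT replicate (0.0599 to 0.0829).

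Of 8 proteases that can cleave laminins 7 were tested, with 1 higher and 1 lower with PT2385 (median -0.04), 3 higher and 1 lower in KO against WT (0.21) and 2 higher and 2 lower in KO against PT2385 (0.04). For these and the netrins below, the shares called over all tested genes were 7.7%, 30.1% and 18.8%, in the same order. MMP2, a gelatinase, was at 32.2 CPM ± 4.55 in WT, 29.2 ± 3.08 with PT2385 and 65.3 ± 12.7 in KO, a rise of 1.03 on the log2 scale (adjusted p = 2.88e-04). TLL1, a tolloid protease, fell in KO by 1.39 (adjusted p = 0.00518) on 30 to 33 reads in WT and 9 to 21 in KO. In both KO comparisons it passed the low-count filter through the other group. The KO counts and medians of this list are therefore not read as a result. TLL2, also a tolloid protease, rose in KO by 0.62 (adjusted p = 0.0181) on 43 to 59 reads in WT and 81 to 96 in KO. That call was lost without KO replicate 2 (0.0518), WT replicate 1 (0.0725) or WT replicate 3 (0.0633). CTSS, a lysosomal cysteine protease, went by -0.56 with PT2385 (adjusted p = 0.0242) and by 0.55 in KO (adjusted p = 0.00956), the former call being lost without WT replicate 2 (0.127) or 3 (0.0875). PLAU, the urokinase plasminogen activator, rose with PT2385 by 0.39 (adjusted p = 0.00261), though not with all 9 libraries in 1 model (0.137). Of 6 netrins and relatives that carry laminin-type domains, 3 were tested, with 0 called with PT2385, 3 higher in KO against WT and 2 higher in KO against PT2385. NTN4, a netrin that binds the gamma 1 chain, rose in KO by 1.62 (adjusted p = 2.12e-05). The membrane-bound NTNG1 rose by 0.71 (adjusted p = 5e-05), and NTNG2 rose by 1.22 (adjusted p = 0.0271) on 6 to 16 reads in WT and 24 to 35 in KO, having passed the low-count filter through the KO libraries. NTN1 was not tested, with 6 to 13 reads in WT, 3 to 10 with PT2385 and 0 in every KO library, so the netrin genes did not all lie higher in KO.

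**Figure D4:**
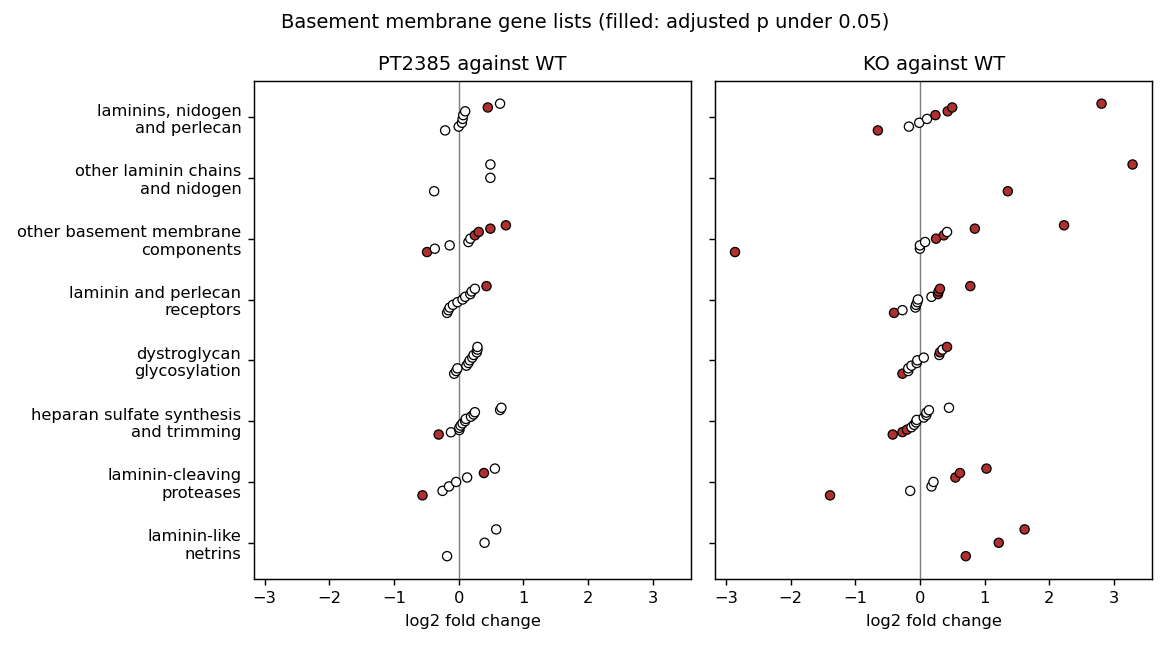
Log2 fold change (edgeR) of every tested gene of the 9 genes and of 7 lists of related genes, in PT2385 against WT (left) and KO against WT (right), with filled points for an adjusted p under 0.05 and vertical offsets within a list for legibility only. In the KO panel the points farthest to the right are NID2 at 3.29, LAMA5 at 2.81 and PXDN at 2.23, the point farthest to the left is FREM2, and with PT2385 all points lie between -1 and 1.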

How the data were processed

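RNA of 786-0 cells was sequenced in 9 libraries. According to the paper, the authors checked reads with FastQC, trimmed them with cutadapt, aligned them to GRCh38 with STAR and counted them with featureCounts, and the deposited values are raw counts per gene. Tool versions, the annotation release and the strandedness of counting are not given in the sources used here. Groups and replicate numbers were taken from the labels, and 0 columns were left unmapped.

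Of the gene identifiers, 58207 matched GENCODE 44, which gave symbols, positions and exon lengths. Models held the 2 groups compared, 6 libraries, and were fitted in edgeR 4.0.16 under R 4.3.3 (TMM scaling, filterByExpr with a minimum of 10 counts, quasi-likelihood F test, Benjamini-Hochberg adjustment over all tested genes, called at an adjusted p under 0.05), and the steps were tested on simulated data. Intervals are 95%. Levels of 3 reads or fewer were taken as the floor. RPKM used all annotated exons. The paper used DESeq2, run here as an alternative (version 1.42.0). The other alternatives were RLE scaling, library size alone, no filter, all 9 libraries in 1 model, the replicate number as a block, leaving out each replicate, and the longest transcript as length.

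The 9 genes, the lists and the motifs were chosen with earlier results of these data known. Named from each list are at most the 4 genes with the largest absolute log2 fold change per comparison among called genes with a mean of at least 20 counts, and the other measured laminin genes, though not all are printed. ADRM1, DLD, LDLRAD2, LAMA5-AS1, ITGB4, ITGA3, FREM2, HS6ST2, NTN1 and NTNG2, COL4A1 in KO against WT and COL4A2 with PT2385 were named after their values were seen. Similar patterns were sought among genes with a mean of at least 100 counts outside chromosome Y, on log2(CPM + 0.01). Promoter sequences are from RefSeq (GRCh38.p14), where all 9 genes matched. Results for 2 genes of these lists are not reported here, and their list counts leave them out.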

Additional observations from a re-analysis of the deposited data

How the results depend on the processing

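For PT2385 against WT, 1162 genes were called, 2305 with the replicate block and 574 to 1451 when single libraries were left out. Laminin, nidogen and perlecan genes called higher were 1, and 2 with no filter on low counts, with all 9 libraries in 1 model and with the replicate block, 1 to 2 when single libraries were left out. Those called lower were 0, and 1 with the replicate block, 0 to 1 when libraries were left out. In KO against WT 4566 genes were called (5501 with the block), 3344 to 5094 when libraries were left out. Genes of the 9 called higher were 4, and 3 to 5 when libraries were left out. Those called lower were 1, and 1 to 2 when libraries were left out. In KO against PT2385 2897 were called (3783 with the block), 1836 to 3190 when libraries were left out. Genes of the 9 called higher there were 3, and 2 to 4 when libraries were left out. Those called lower were 2, and 1 to 3 when libraries were left out. With the longest transcript as length, LAMA5 was 12.21% of the alpha sum in KO, and 13.0% to 13.3% over the libraries left out with all exons as length.

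The replicate block is no pairing by design. Whether same-numbered libraries deviated together depended on the genes used. For PT2385 with WT, replicates 1, 2 and 3 had correlations of 0.241, 0.069 and 0.242 over genes with a mean of at least 10 counts and of 0.461, 0.136 and 0.431 at a mean of at least 100. In both KO comparisons replicate 2 stayed low, at -0.00282 and 0.0534 with WT and 0.0261 and 0.0854 with PT2385, and KO replicate 2 correlated better with WT replicate 1 (0.138 and 0.297). With the replicate block, LAMA5 (0.64, adjusted p = 0.00583) and LAMB3 (-0.21, adjusted p = 0.00869) were called with PT2385, and LAMA3 (-0.25, adjusted p = 0.00966) in KO against PT2385. It changed no other call of the 9 genes.

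Of the log2 fold changes of named genes, 3 changed sign when a library was left out, none of them called in that fit or with all libraries. LAMA1 with PT2385 ranged from -0.80 to 0.13, HSPG2 in KO against WT from -0.06 to 0.04, and LAMB3 in KO against WT from -0.19 to 0.40. Over the alternatives, 966 values kept their direction and side of the threshold, 84 lost and 15 gained a call, and the cause was not tested. Depth limits LAMA4, LAMB4 and LAMC3, which lay at or under 3 reads.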
